A study of Mus musculus with 4 samples.

Results

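The proteasome genes of subcutaneous mouse tumors were described in tumors with Taz knockdown (shTaz) and in control tumors with an shRNA against luciferase (shLuc, written shLuciferace in the labels). The members are the rows of the deposited table whose symbol begins with Psm, then a letter from a to g, then a digit. There were 48 such genes among 15424 listed genes. They comprise 15 genes of the core particle, 5 genes grouped as the immunoproteasome (Psmb8, Psmb9, Psmb10, Psme1 and Psme2), 17 of the regulatory particle, 7 of assembly factors and 4 other matches. A mean of at least 1 FPKM (fragments scaled to transcript length and library total) over the 2 columns was reached by 47 members and 11650 genes. The member under it was Psma8, a testis form of an alpha subunit, with 0 in shTaz and 0.147 FPKM in shLuc.

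The proteasome is the barrel-shaped protease that degrades ubiquitin-tagged proteins. Its core particle is a stack of alpha and beta rings with the proteolytic sites inside. The regulatory particle caps the barrel, binds ubiquitin chains, unfolds the substrate with a ring of ATPases and removes the ubiquitin. Interferon gamma induces alternative catalytic beta subunits and the PA28 cap, which together form the immunoproteasome, the form that leukocytes carry and that shapes the peptides loaded on MHC class I.

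Both groups were grown under the skin of nude mice from R728T1 cells, which the labels describe as non-SMCs from an Rb/P53 mouse model and as small cell lung cancer. Nude mice lack mature T cells but keep macrophages and neutrophils. Each group has 2 samples in the labels, which do not say whether these are separate animals. The table holds 1 column per group, so no value has a replicate spread and no test or p-value can be given. The sequencing depth is unknown. The summed FPKM was 427921 in the shTaz column and 501728 in the shLuc column. The name Taz fits Wwtr1, which encodes TAZ (15.1 FPKM in shTaz, 23.4 FPKM in shLuc), and Taz, the older symbol of Tafazzin (9.50 FPKM in shTaz, 13.7 FPKM in shLuc). Of 6 neuroendocrine markers, Uchl1 was at 1.51 FPKM in shTaz and 10.1 FPKM in shLuc. Ncam1 was at 43.8 FPKM in shTaz and 39.8 FPKM in shLuc, while Syp and Insm1 were under 1 FPKM in both columns. Chga and Calca were not analysed here.

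As deposited, about as many proteasome genes were higher as lower in shTaz, a split that moved with the processing. Differences are given as log2 of shTaz FPKM + 1 over shLuc FPKM + 1, so a positive value is higher in shTaz. Over the 47 members the median difference was -0.0091, with 23 members higher and 24 lower in shTaz, against a median of 0.12 over all 11650 genes, of which 58.3% were higher. Of the 47 members 31 lay below that median. With median-ratio scaling 14 were higher and 33 lower, and after removal of the trend with GC content 11 were higher and 36 lower, with a median of -0.17. A 2-fold difference, 1 on the log2 scale, was reached by 1 member, Psmd14, against 7.21% of all genes in either direction. It was higher in shTaz, as were 3.96% of all genes, while no member was 2-fold lower, against 3.25% of all genes. At a smaller step of 0.5 on the log2 scale, 5 members were higher against 22.6% of all genes, and 2 members were lower against 12.5%. The higher members were Psmd14, Psmd5, Psmc6, Psme4 and Psmc3ip, and the lower ones were Psmb5 and Psmb4. The members together held 0.523% of the summed FPKM in shTaz and 0.502% in shLuc.

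**Figure D1:**
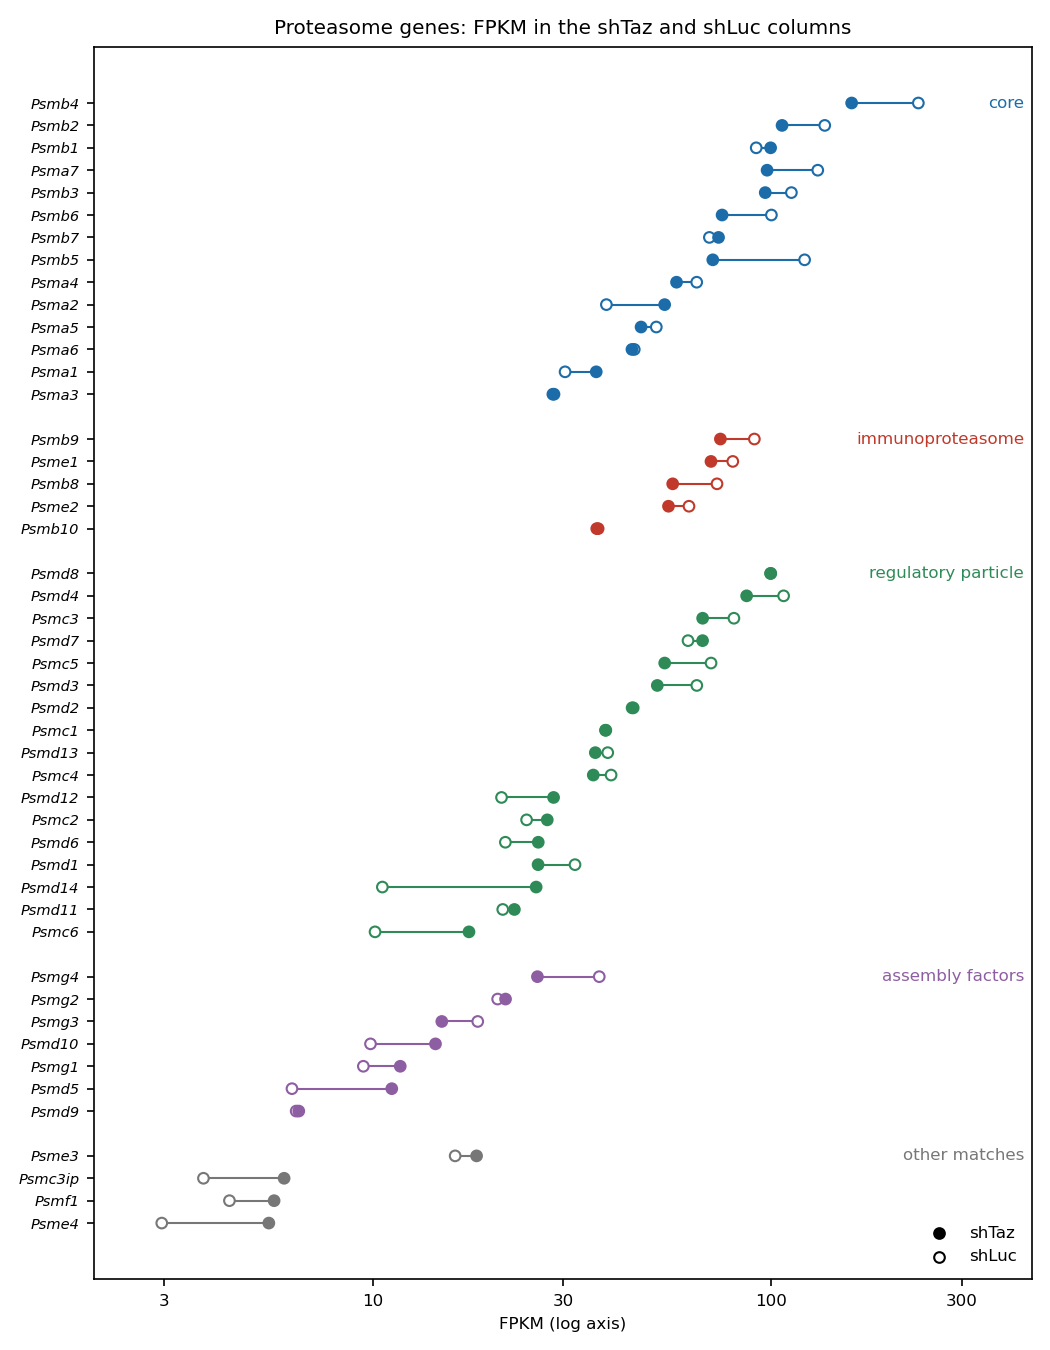
FPKM of the 47 members on a log axis, filled points for the shTaz column and open points for the shLuc column, with a line joining the values of a gene. The widest gap is that of Psmd14 (25.7 FPKM in shTaz, 10.6 FPKM in shLuc).

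The median difference was -0.14 for the core subunits, -0.18 for the immunoproteasome, 0.0018 for the regulatory particle and 0.063 for the assembly factors. All 4 were under the value for all genes, 0.12, and no test of a difference between the groups was possible. The core median lay below 0, and under that of all genes, in each of the 8 other settings. The immunoproteasome median was above 0 in 1 of them (0.018, after removal of both the GC and the length trend). The medians of the regulatory particle and the assembly factors changed sign with the scaling, as with median-ratio scaling (-0.13 and -0.067).

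**Figure D2:**
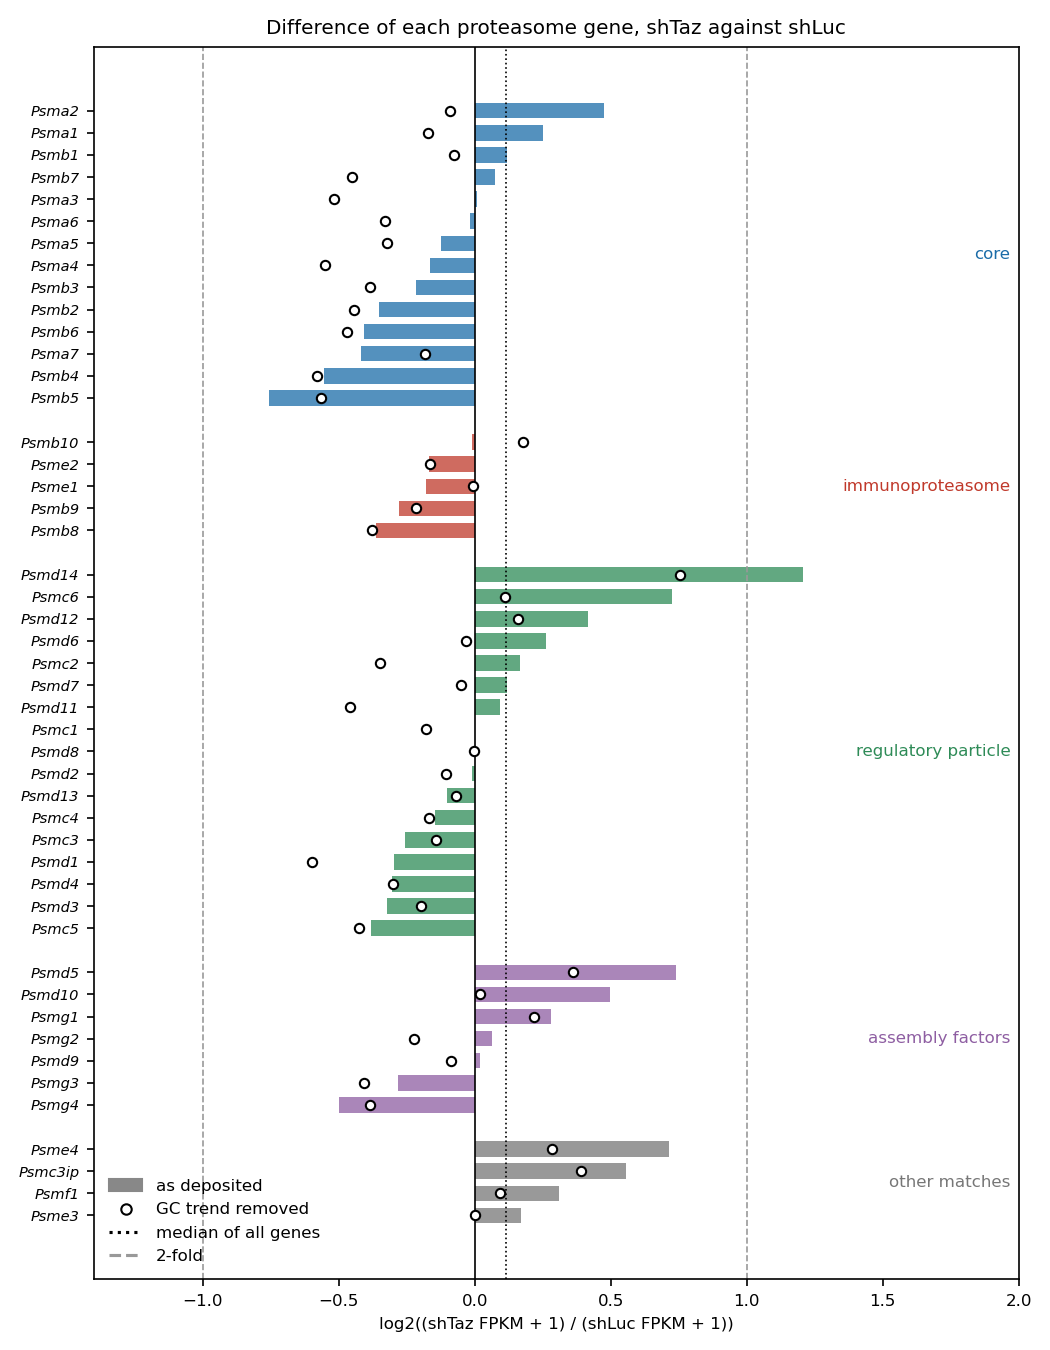
Difference of each of the 47 members on the log2 scale, by group (bars), and after removal of the trend with GC content (open points). The dotted line is the median of all genes, 0.12, and dashed lines mark 2-fold. With the trend removed every core gene lies below 0.

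The start-site regions of 4 members are shown, because Psmd14 and Psmb5 stand at the ends of the list and Psmb8 and Psmb9 are the inducible subunits that share a locus. Each window runs from 250 bases before to 50 bases after the start in RefSeq (build GRCm38.p6), 5′ to 3′ on the strand of the gene. The window of Psmd14 is chr2:61711444-61711743 on the plus strand and that of Psmb5 chr14:54617946-54618245 on the minus strand. Psmb8 has chr17:34197945-34198244 on the plus strand and Psmb9 chr17:34187281-34187580 on the minus strand. Capitals mark matches to 4 motifs searched on both strands: the CCAAT box (CCAAT), the antioxidant response element core (TGACNNNGC), the gamma-activated sequence (TTCNNNGAA) and an interferon response motif (GAAA, any 2 bases, GAAA).
Psmd14: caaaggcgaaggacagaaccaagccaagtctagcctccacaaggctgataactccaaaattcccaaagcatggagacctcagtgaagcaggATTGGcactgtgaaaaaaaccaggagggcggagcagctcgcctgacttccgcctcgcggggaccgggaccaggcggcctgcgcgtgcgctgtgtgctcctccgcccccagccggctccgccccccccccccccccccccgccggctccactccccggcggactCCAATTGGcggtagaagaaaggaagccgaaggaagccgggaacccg
Psmb5: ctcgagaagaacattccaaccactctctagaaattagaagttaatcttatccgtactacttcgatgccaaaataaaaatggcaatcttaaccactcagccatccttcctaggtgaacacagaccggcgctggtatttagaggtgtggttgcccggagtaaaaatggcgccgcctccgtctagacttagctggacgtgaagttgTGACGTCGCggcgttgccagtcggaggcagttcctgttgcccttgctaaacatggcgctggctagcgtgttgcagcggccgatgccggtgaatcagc
Psmb8: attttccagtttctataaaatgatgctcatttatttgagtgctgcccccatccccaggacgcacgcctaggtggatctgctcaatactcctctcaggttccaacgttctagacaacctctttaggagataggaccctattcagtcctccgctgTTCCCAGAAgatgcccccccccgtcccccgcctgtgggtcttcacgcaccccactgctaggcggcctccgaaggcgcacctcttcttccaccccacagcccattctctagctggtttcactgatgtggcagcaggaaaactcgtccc
Psmb9: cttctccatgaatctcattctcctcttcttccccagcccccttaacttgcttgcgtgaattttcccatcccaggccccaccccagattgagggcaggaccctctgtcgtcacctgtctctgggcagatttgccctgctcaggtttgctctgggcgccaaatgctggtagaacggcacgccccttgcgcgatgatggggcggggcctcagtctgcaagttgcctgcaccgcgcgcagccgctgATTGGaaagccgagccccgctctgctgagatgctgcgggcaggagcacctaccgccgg
In the Psmd14 window the capitals are CCAAT boxes, at bases 92 to 96, 255 to 259 and 258 to 262 of the window, the last pair overlapping on opposite strands. The Psmb5 window holds an antioxidant response element core at bases 204 to 212. Psmb8 has a gamma-activated sequence at bases 154 to 162, and Psmb9 a CCAAT box on the opposite strand at bases 243 to 247.

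Of the 48 members 40 had such a window in the RefSeq table. The antioxidant response element core, the motif class bound by NRF1 and NRF2, was in 6 of the 40 (15.0%), against 13.99% of all 27025 genes. These were Psmb5, Psmb6, Psmc6, Psmd9, Psmd12 and Psme4, so that the motif stood at genes lower in shTaz and at genes higher in shTaz. The CCAAT box was in 14 of 40 (35.0%), against 41.1% of all genes. The gamma-activated sequence was in 3 of 40 (7.50%), against 9.55%, and among the 5 immunoproteasome members only in Psmb8. The interferon response motif was in 5 of 40 (12.5%), against 3.99%, and among the immunoproteasome members in Psme1. A match describes the letters of the window and not a site in use.

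As deposited, the genes of the beta rings were lower by more than those of the alpha rings. The 7 beta genes summed to 681 FPKM in shTaz and 864 FPKM in shLuc, or 78.8% of the control value, with a median difference of -0.35. The 7 expressed alpha genes summed to 366 FPKM in shTaz and 389.5 FPKM in shLuc, or 93.9%, with a median of -0.019. All genes of the table with a mean of at least 1 FPKM summed to 85.2% of the control value, so the beta sum was below and the alpha sum above that share. Such sums weigh the most abundant genes most. Gene by gene, 5 of the 7 alpha genes and 6 of the 7 beta genes lay below the median difference of all genes, 0.12. The alpha transcripts had a median GC content of 45.0% and the beta transcripts one of 51.0%. With the GC trend removed all 7 genes of each ring were below 0, with medians of -0.32 for the alpha and -0.45 for the beta genes.

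Psmb5, which carries the chymotrypsin-like site and is the main target of bortezomib, was at 71.3 FPKM in shTaz and 121 FPKM in shLuc. Its difference of -0.76 was the lowest of the members, and 5.98% of all genes lay lower. Psmb5 was lower in shTaz in each of the 9 settings, from -0.89 to -0.31. The filters and the smaller pseudocount cannot change the sign of a gene, so a kept direction rests on the scalings and trend removals. No share of all genes that kept their direction is given beside such statements. A processed pseudogene of Psmb5 matches it at 98.9% identity over 796 aligned bases, so that reads of the pair may be split. Psmb4, a structural beta subunit and the most abundant member, was at 159 FPKM in shTaz and 233 FPKM in shLuc, a difference of -0.55. Psmb6, the caspase-like subunit, was at 75.2 FPKM in shTaz and 99.96 FPKM in shLuc. Psmb7, the trypsin-like subunit, was nearly equal, at 73.7 FPKM in shTaz and 69.9 FPKM in shLuc. All 3 catalytic subunits were under the 0.12 of all genes, and with the GC trend removed all 3 were below 0, from -0.56 for Psmb5 to -0.45 for Psmb7.

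Among the other beta genes Psmb2 was at 106 FPKM in shTaz and 136 FPKM in shLuc, and Psmb3 at 96.5 FPKM in shTaz and 112 FPKM in shLuc. Psmb1 was at 99.5 FPKM in shTaz and 91.6 FPKM in shLuc. Psmb2, Psmb3, Psmb4, Psmb5 and Psmb6 were lower in all 9 settings, whereas Psmb1 and Psmb7 changed sign between settings. In the setting nearest to equal Psmb2 was at -0.064 and Psmb3 at -0.041.

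In the alpha ring, whose tails gate the entry to the barrel, the most abundant gene was Psma7, at 97.5 FPKM in shTaz and 131 FPKM in shLuc. It was the only alpha gene lower in all 9 settings, from -0.55 to -0.078. Psma2 had the highest difference of the core, 0.47, with 54.0 FPKM in shTaz and 38.6 FPKM in shLuc. Its transcript is AT-rich (39.4% GC), and with the GC trend removed its difference was -0.089. Psma1 was at 36.4 FPKM in shTaz and 30.4 FPKM in shLuc. Psma4 was at 57.8 FPKM in shTaz and 64.9 FPKM in shLuc, and Psma5 at 47.1 FPKM in shTaz and 51.4 FPKM in shLuc. Psma6 (44.7 FPKM in shTaz, 45.3 FPKM in shLuc) and Psma3 (28.5 FPKM in shTaz, 28.3 FPKM in shLuc) were nearly equal. Psma3, Psma4 and Psma5 have processed copies of at least 95% identity in the genome, and their values are uncertain for that reason.

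All 5 immunoproteasome members were lower in shTaz, by small amounts and none by 0.5, against 41.7% of all genes lower by any amount. Their transcripts are GC-rich (52.5% to 56.5%). Of the 5553 genes at or above the median GC content of all genes, 50.2%, 3481 were lower. Psmb8 (LMP7), the inducible chymotrypsin-like subunit, was at 56.5 FPKM in shTaz and 73.0 FPKM in shLuc, a difference of -0.36. Psmb9 (LMP2), the inducible caspase-like subunit, was at 74.5 FPKM in shTaz and 90.6 FPKM in shLuc, a difference of -0.28. Both lie in the MHC region on chromosome 17 and were lower in all 9 settings. Psmb10 (MECL1), the inducible trypsin-like subunit on chromosome 8, was at 36.5 FPKM in shTaz and 36.8 FPKM in shLuc, which is nearly equal. The PA28 cap genes were slightly lower, Psme1 at 70.5 FPKM in shTaz and 79.98 FPKM in shLuc, and Psme2 at 55.2 FPKM in shTaz and 62.1 FPKM in shLuc. Psmb10, Psme1 and Psme2 changed sign between settings, so that of the 5 genes Psmb8 and Psmb9 alone kept their direction. Psmb8 ran from -0.50 to -0.25 and Psmb9 from -0.41 to -0.13.

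The annotation adds uncertainty to some of these values, because the strand setting of the libraries is not given. Psmb9 shares 212 exon bases with Tap1 on the opposite strand, and Psmb8 shares 498 with an antisense gene. Psme2 is 99.4% identical over 794 aligned bases to its copy Psme2b, which was not analysed here.

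Each inducible subunit takes the place of a constitutive one, and FPKM is a level per transcript length, so the pairs were set side by side within a column. FPKM leaves GC content uncorrected, and the transcripts of Psmb10 and Psmb7 differ in it (56.5% and 40.8%). Psmb7 also shares 405 exon bases with Nek6 on the opposite strand. Psmb8 made up 44.2% of the sum of Psmb8 and Psmb5 in shTaz and 37.6% in shLuc. Psmb9 made up 49.8% of the sum with Psmb6 in shTaz and 47.5% in shLuc. Psmb10 made up 33.1% of the sum with Psmb7 in shTaz and 34.5% in shLuc. On the log2 scale the ratio of inducible to constitutive FPKM thus differed by 0.396 for Psmb8 and Psmb5, by 0.13 for Psmb9 and Psmb6 and by -0.088 for Psmb10 and Psmb7. The order depended on the GC trend, since with the trend removed these values were 0.19, 0.25 and 0.63, so that the third pair turned positive and became the largest. In sum the 3 inducible genes made up 43.2% of the 6 in shTaz and 40.8% in shLuc.

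**Figure D3:**
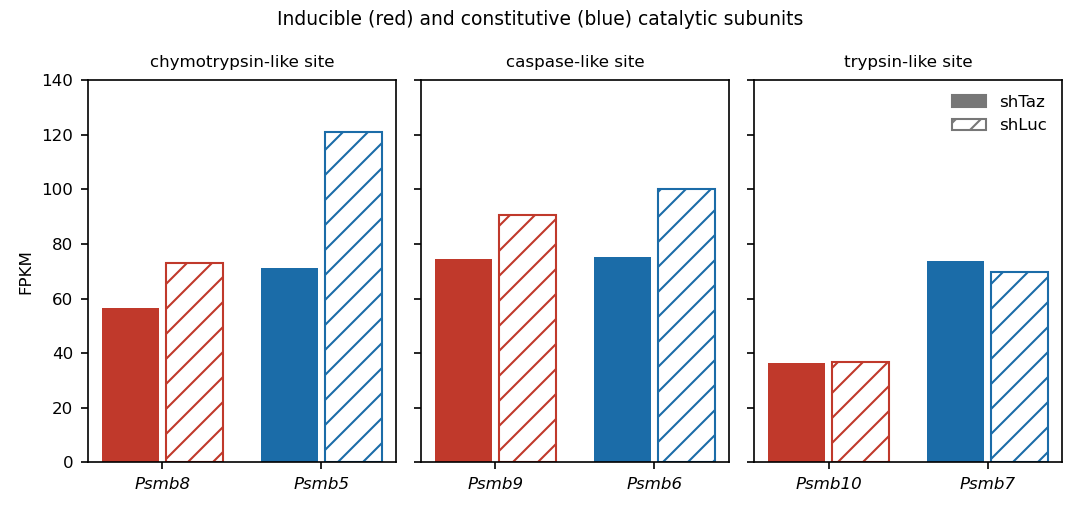
FPKM of the inducible (red) and constitutive (blue) catalytic subunits of each proteolytic site, filled bars for the shTaz column and hatched bars for the shLuc column. Psmb5 has the largest gap, at 71.3 FPKM in shTaz and 121 FPKM in shLuc.

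Leukocytes carry the immunoproteasome, so their markers were set beside it. Of 10 leukocyte markers 8 were higher in shTaz, against 58.3% of all genes, and they summed to 2058 FPKM in shTaz and 1559.9 FPKM in shLuc. The largest differences were those of Ptprc, the pan-leukocyte phosphatase CD45 (10.7 FPKM in shTaz, 3.96 FPKM in shLuc, 1.23, or 0.67 with the GC trend removed), and Itgam, an integrin of myeloid cells (45.7 FPKM in shTaz, 29.1 FPKM in shLuc, 0.63). Cd14 (-0.13) and Cd68 (-0.023) were lower. T, NK and B cell markers were at or near 0, with Cd3e, Cd3d and Ncr1 listed at 0 in shTaz and under 0.3 FPKM in shLuc. The 5 listed markers of the 8 summed to 0.590 FPKM in shTaz and 1.71 FPKM in shLuc. The median difference was 0.35 for the leukocyte markers and -0.18 for the immunoproteasome. With the GC trend alone removed it was 0.28 for the markers and -0.17 for the immunoproteasome. The medians had opposite signs in every setting except the removal of both the GC and the length trend. There it was 0.36 for the markers and 0.018 for the immunoproteasome, with 3 of its 5 genes higher. The part of leukocytes in these values was not tested, and fewer cells of a type cannot be told apart from less RNA per cell in bulk tumors.

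Genes that work with the immunoproteasome were mixed. Tap1 and Tap2, whose products carry peptides into the endoplasmic reticulum, had the lowest differences of 7 expressed partners. Tap1 was at 9.53 FPKM in shTaz and 13.4 FPKM in shLuc (-0.45), and Tap2 at 36.6 FPKM in shTaz and 50.7 FPKM in shLuc (-0.46). The highest were those of the transcription factor gene Irf8 (25.8 FPKM in shTaz, 14.2 FPKM in shLuc, 0.82) and of B2m, the light chain of MHC class I, which was nearly equal (577 FPKM in shTaz, 558 FPKM in shLuc, 0.049). Irf1, which drives the inducible subunits, was at 15.6 FPKM in shTaz and 18.5 FPKM in shLuc. In all, 3 of the 7 were higher and 4 lower, with a median of -0.15, and none reached 2-fold. With median-ratio scaling 1 was higher and 6 were lower.

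The regulatory particle held the member that differed most. Psmd14 encodes RPN11, the metalloprotease that cuts ubiquitin chains from substrates as they enter the barrel. It was at 25.7 FPKM in shTaz and 10.6 FPKM in shLuc, 2.43 times the control value and 1.21 on the log2 scale, and 98.3% of all genes had a lower difference. It stayed higher in all 9 settings, from 0.75 to 1.31, and was past 2-fold in 7 of them. These 7 are not separate checks, since the filters leave the value at 1.21 and a smaller pseudocount can only enlarge it. Psmd14 was also past 2-fold with median-ratio scaling (1.08), quantile normalization (1.15) and the length trend removed (1.31). It was under 2-fold with the GC trend removed (0.75) and with the GC and length trends removed (0.90). Psmd14 lies on chromosome 2 from 61711694 to 61800376 on the plus strand of mm10.

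The other lid genes among the members lay between -0.32 and 0.42. The lid subunit Sem1, listed as Shfm1, lies outside the name rule and was lower (475 FPKM in shTaz, 682 FPKM in shLuc, -0.52). Psmd12 was at 28.4 FPKM in shTaz and 21.04 FPKM in shLuc, and Psmd6 at 26.02 FPKM in shTaz and 21.5 FPKM in shLuc. Psmd11 was at 22.7 FPKM in shTaz and 21.2 FPKM in shLuc, and Psmd7, the partner of Psmd14 in its enzyme pair, at 67.2 FPKM in shTaz and 61.8 FPKM in shLuc. The level of Psmd7 was 2.61 times that of Psmd14 in shTaz and 5.84 times in shLuc. Psmd8 (99.6 FPKM in shTaz, 99.5 FPKM in shLuc) was nearly equal. Psmd13 (36.2 FPKM in shTaz, 38.9 FPKM in shLuc) and Psmd3 (51.7 FPKM in shTaz, 64.98 FPKM in shLuc) were lower. Of the 8 lid genes that match the rule, so without Sem1, 6 were higher, against 58.3% of all genes. Their median was 0.11, just under that of all genes.

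In the base, which unfolds substrates, the ATPase gene Psmc6 (RPT4) had the highest difference, 0.73, at 17.4 FPKM in shTaz and 10.1 FPKM in shLuc. Its transcript has the lowest GC content of the members (37.0%), and with the GC trend removed the difference was 0.11. Psmc5 had the lowest, -0.38, at 54.0 FPKM in shTaz and 70.5 FPKM in shLuc. Psmc3 was at 67.2 FPKM in shTaz and 80.5 FPKM in shLuc, and Psmc4 at 35.7 FPKM in shTaz and 39.6 FPKM in shLuc. Psmc1 (38.4 FPKM in both) and Psmc2 (27.4 FPKM in shTaz, 24.3 FPKM in shLuc) differed little. The 6 ATPases form a ring with 1 copy of each, and their FPKM spread 3.85-fold from Psmc6 to Psmc3 in shTaz and 7.94-fold in shLuc. The base subunits that are not ATPases were lower or equal. Psmd1, a scaffold, was at 25.99 FPKM in shTaz and 32.2 FPKM in shLuc, and Psmd4, a ubiquitin receptor, at 86.6 FPKM in shTaz and 107 FPKM in shLuc. The scaffold gene Psmd2 was at 44.7 FPKM in shTaz and 45.01 FPKM in shLuc. Psmc1 and Psmd2 also have processed copies of at least 95% identity in the genome, so that their values are uncertain as well.

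The assembly factors were mixed, with 5 of 7 genes higher, against 58.3% of all genes. The base chaperone genes summed to 32.1 FPKM in shTaz and 22.6 FPKM in shLuc, or 142%. Psmd5 (S5b) was at 11.2 FPKM in shTaz and 6.28 FPKM in shLuc, a difference of 0.74, and stayed higher in all 9 settings, from 0.31 to 0.82. Psmd10, or gankyrin, which is also known to bind the retinoblastoma protein, was at 14.4 FPKM in shTaz and 9.88 FPKM in shLuc, a difference of 0.499. With the GC trend removed it was 0.018, so that nearly all of that difference lay on the trend. Psmd9 was nearly equal, at 6.53 FPKM in shTaz and 6.43 FPKM in shLuc, and shares 1849 exon bases with a gene on the opposite strand.

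The core chaperone genes summed to 74.1 FPKM in shTaz and 85.4 FPKM in shLuc, or 86.7%. Psmg1 and Psmg2 encode a pair that starts the alpha ring. Psmg1 was at 11.7 FPKM in shTaz and 9.48 FPKM in shLuc, and Psmg2 at 21.5 FPKM in shTaz and 20.6 FPKM in shLuc. Psmg3 and Psmg4 encode the second pair, and both were lower in all 9 settings, Psmg3 from -0.41 to -0.28. Psmg4 was at -0.499 as deposited and at -0.082 with the length trend removed. With both the GC and the length trend removed it was at -0.0025, near the median of all genes there, -0.0012. Psmg3 was at 14.9 FPKM in shTaz and 18.3 FPKM in shLuc, and Psmg4 at 25.9 FPKM in shTaz and 36.999 FPKM in shLuc. Thus 2 of these 4 genes were higher and 2 lower, with a median of -0.11.

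All 4 other matches were higher in shTaz, against 58.3% of all genes, and in every setting that measured them. Psme4 encodes PA200, a nuclear activator, and was at 5.49 FPKM in shTaz and 2.96 FPKM in shLuc, a difference of 0.71. Psme3, the nuclear relative of the PA28 genes, was at 18.2 FPKM in shTaz and 16.1 FPKM in shLuc. With the GC trend removed its difference was 0.0028, which is not above the median of all genes in that setting, 0.0031. Psmf1, which encodes the regulator PI31, was at 5.66 FPKM in shTaz and 4.37 FPKM in shLuc. Psmc3ip matches by name only: it encodes HOP2, a factor of meiotic recombination, and is no subunit. It was at 5.998 FPKM in shTaz and 3.76 FPKM in shLuc, and shares 385 exon bases with Mlx on the opposite strand.

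The differences among members followed the base composition of their transcripts. Of 25 members with a GC content under 50.2%, the median of all genes, 20 were higher in shTaz, with a median difference of 0.17. Of the 22 others 19 were lower, with a median of -0.28. The same division held across the table, where 79.5% of the genes under 50.2% GC and 37.3% of the others were higher, with medians of 0.37 and -0.12. Over the 47 members Pearson's r of difference and GC content was -0.66 and Spearman's rho -0.70, and over 11106 genes r was -0.47 and rho -0.56. These are descriptions across genes that share the same pair of columns, and genes are not replicates. The part of base composition in each difference was not tested beyond the removal of the trend.

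**Figure D4:**
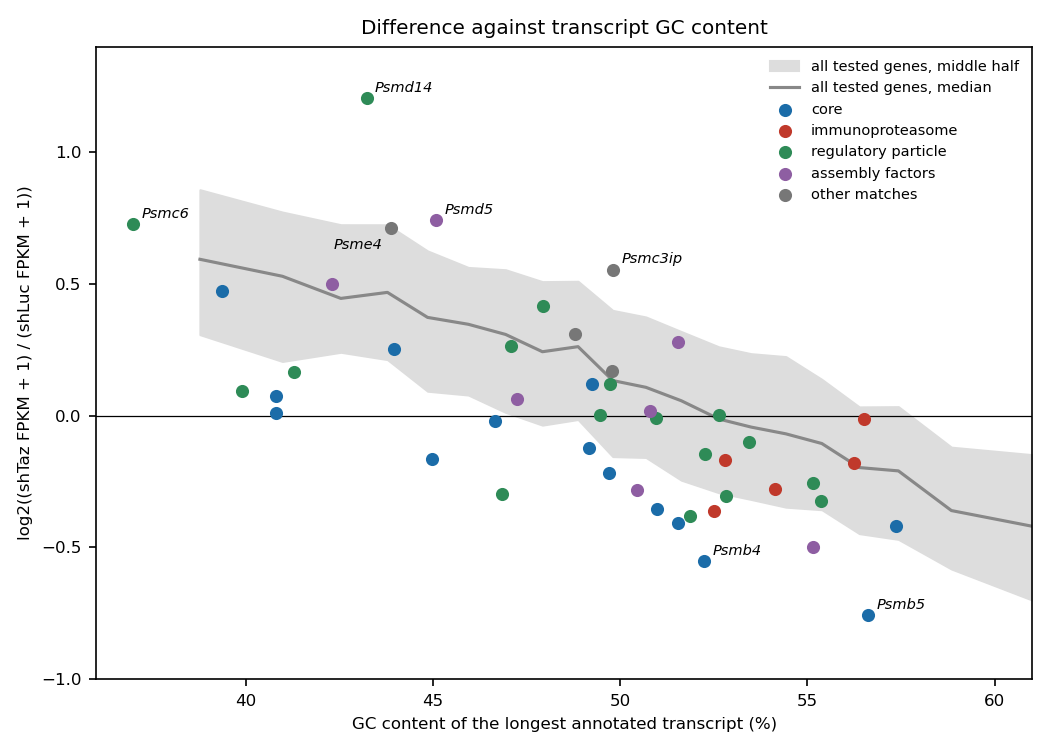
Difference of each member on the log2 scale (points, by group) against the GC content of its longest annotated transcript. The gray line and band are the median and the interquartile range of all tested genes in 20 bins of GC content. Core genes lie under the line and Psmd14 lies above the band.

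Set against genes of like GC content, the core stood lower. With the trend removed the median of the core was -0.42, and all 14 expressed core genes were below 0, from -0.58 to -0.076, against 49.8% of all genes. The regulatory particle had 14 of 17 below 0, with a median of -0.14, and the immunoproteasome 4 of 5, with a median of -0.17. The assembly factors had 4 of 7 below 0, and all 4 other matches were above it, Psme3 at only 0.0028. No member was then past 2-fold, against 4.65% of all genes. At the step of 0.5 Psmd14 was higher (9.88% of all genes), and Psmb4, Psmb5, Psma3, Psma4 and Psmd1 were lower (12.9% of all genes). Removal of the length trend alone gave the core a median of -0.044, and removal of both trends -0.18. Core transcripts are short, with a median length of 1220 bases against 3262 over all genes.

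The members also differed by abundance. Over the 47 members r of the difference with log2 mean FPKM was -0.69 and rho -0.71, against -0.20 and -0.24 over all 11650 genes. The difference and the mean come from the same values, which alone can tie them. The SD of log2 FPKM among the 47 members was 1.206 in shTaz and 1.5001 in shLuc, and over 11584 genes above 0 in both columns it was 1.91 in shTaz and 2.07 in shLuc. The highest core gene was 5.58 times the lowest in shTaz and 8.25 times in shLuc. In the regulatory particle the fold was 5.71 in shTaz and 10.6 in shLuc. The SD of log2 FPKM was 0.68 in shTaz and 0.90 in shLuc for the core. For the regulatory particle it was 0.72 in shTaz and 1.03 in shLuc. Levels within both were therefore closer together in the shTaz column, as were those of all genes by the SD. No spread with the GC trend removed is given. The order of genes was nearly the same, with a rho of 0.97 between the log2 columns over the members.

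Other genes that serve the proteasome were taken from a list of 15, of which 14 were measured. Of these 10 were higher and 4 lower, against 58.3% of all genes higher, with a median of 0.30, and none reached 2-fold. The median was 0.068 with the GC trend removed, 0.095 with the length trend removed and 0.047 after removal of both. The highest differences were those of Usp14 (8.03 FPKM in shTaz, 3.796 FPKM in shLuc, 0.91) and Ubqln2 (18.1 FPKM in shTaz, 9.16 FPKM in shLuc, 0.91), a shuttle of ubiquitin-tagged proteins. Usp14 is a deubiquitinase that sits on the regulatory particle, as does Uchl5, which was at 8.73 FPKM in shTaz and 4.48 FPKM in shLuc (0.83). With the GC trend removed Usp14 was at 0.35, Uchl5 at 0.26 and Ubqln2 at 0.78. The lowest were Sem1, a small lid subunit listed as Shfm1 (475 FPKM in shTaz, 682 FPKM in shLuc, -0.52), and Adrm1, a ubiquitin receptor (42.6 FPKM in shTaz, 55.8 FPKM in shLuc, -0.38). With the GC trend removed Sem1 was at -0.99 and Adrm1 at -0.25. Pomp, which matures the core, was nearly equal, at 136 FPKM in shTaz and 129 FPKM in shLuc.

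NRF1, encoded by Nfe2l1, is the factor that raises proteasome genes when proteolysis is blocked. Nfe2l1 was at 38.7 FPKM in shTaz and 37.4 FPKM in shLuc. The genes of its processing enzymes had the highest differences of the list, Ngly1 at 3.82 FPKM in shTaz and 1.33 FPKM in shLuc (1.05) and Ddi2 at 9.65 FPKM in shTaz and 5.04 FPKM in shLuc (0.82). Of these 6 genes all were higher, against 58.3% of all genes, and 1 was 2-fold higher, against 3.96%. Their median was 0.41, but 3 of the 6 lay under the median of all genes, 0.12. With median-ratio scaling 3 were higher and 3 lower, with a median of 0.29. Removal of the length trend also left 3 higher and 3 lower, with a median of 0.24. With the GC trend removed all 6 were higher, with a median of 0.34, where 49.8% of all genes were lower. All 6 were also higher with both trends removed, with a median of 0.35 and a lowest value of 0.0068. The 2-fold difference, that of Ngly1, did not reach 2-fold with median-ratio scaling, quantile normalization or any trend removed, where the highest value of the list lay between 0.54 and 0.96. Ngly1 drops out under a filter of 5 FPKM, and the median of the other 5 genes was 0.093. The lowest were Mafg (18.1 FPKM in shTaz, 17.99 FPKM in shLuc, 0.011) and Nfe2l1 itself (0.047).

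Rps27a and Ubb, which encode ubiquitin, were lower. Rps27a, whose product is ubiquitin fused to a ribosomal protein, was at 498 FPKM in shTaz and 727 FPKM in shLuc (-0.54). The polyubiquitin gene Ubb was at 489 FPKM in shTaz and 634 FPKM in shLuc (-0.38). With the GC trend removed Rps27a was at -0.97 and Ubb at -0.31. With the length trend removed the lowest gene of this list was at -0.28, and with both trends removed at -0.68. The activating enzyme gene Uba1 was at 50.9 FPKM in shTaz and 48.6 FPKM in shLuc (0.066), and lower with median-ratio scaling and wherever the length trend was removed, while Uba6 did not reach a mean of 1 FPKM. None of the 3 expressed genes reached 2-fold. The median of the 3 was -0.38, and it stayed below 0 in the 8 other settings, at -0.032 with quantile normalization.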

How the data were processed

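Tumor RNA was sequenced for 4 samples in 2 groups. The authors deposited FPKM values in 1 column per group. Each heading matches a label of both samples of its group, and whether a column is a mean of the samples, a joint estimate or 1 library is not given in the sources used here. TopHat, Trim Galore and the mm10 build are named, without versions, in the submitters' processing notes. FPKM leaves effects of GC content and of very abundant RNAs uncorrected. Low values were searched for whole-read steps. The best step placed 26.7% of 525 shTaz values and 28.1% of 274 shLuc values within 0.1 of a whole step, against 20% by chance for a step set beforehand, so no counts were recovered and depth is unknown.

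Differences were taken with a pseudocount of 1 FPKM where the mean reached 1 FPKM, with no test, because the plan for a table of 1 column per group was values, medians and counts only. The pseudocount understates differences of low genes. A difference of 1 on the log2 scale is 2-fold, and 0.5 was the smaller step. Every member is accounted for. Immunoproteasome members, constitutive catalytic subunits and members past 0.5 were to be named with values, and 2 genes each way from each partner list. Members and lists were chosen with earlier results of these data known. Some genes of the partner and marker lists are not reported here and are left out of the counts and medians. Transcript length and GC content are those of the longest GENCODE M21 transcript (mm10), known for 95.3% of tested genes and all 48 members. Trends were removed by lowess (span 0.3, statsmodels 0.14.6, Python 3.11.15), checked on simulated data. Near-identical copies were sought with blastn 2.17.0 (at least 95% identity over 300 bases). Promoter windows are from RefSeq (GRCm38.p6). Columns of per-sample values left unused numbered 0.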

Additional observations from a re-analysis of the deposited data

How the results depend on the processing

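Each result was recomputed under 8 other settings. With a pseudocount of 0.1 the median difference was -0.15 for the core and 0.066 for the assembly factors, and without a filter it was -0.17 for the core. With median-ratio scaling, which moved the median of all genes from 0.12 to 3.4e-05, the medians of the core, the immunoproteasome, the regulatory particle and the assembly factors were -0.28, -0.31, -0.13 and -0.067. With quantile normalization they were -0.044, -0.062, 0.096 and 0.070. Removal of the GC trend gave -0.42, -0.17, -0.14 and -0.085. Removal of the length trend gave -0.044, -0.17, -0.026 and 0.23. Removal of both gave -0.18, 0.018, -0.097 and -0.0025. A mean of at least 5 FPKM left the medians as they were. The number of members past 2-fold was 1 in every setting except after removal of the GC trend (0) or of both trends (0), because Psmd14 was then at 0.75 and 0.90. The cause of the other shifts was not tested.

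Over the settings that measured them, 17 members were lower in each, 10 were higher in each and 20 had both signs. The smaller pseudocount and the filters cannot change the sign of a gene, so only the scalings and the trend removals could. No share of all genes that kept their direction is given beside these counts. The split of the 47 members was 14 higher and 33 lower with median-ratio scaling, 25 and 22 with quantile normalization, 11 and 36 after removal of the GC trend, and 17 and 30 after removal of both. No paired analysis was possible because the table holds 1 column per group, and for the same reason leaving out each replicate was not run. Depth is unknown, so no counting interval can be given.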
